A study of Zea mays with 36 samples.

Results

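Rough sheath2 (rs2), narrow sheath2 (ns2) and wox13B are 3 transcription factor genes of maize that act, or belong to families that act, where a leaf is set off from the shoot apical meristem. They were followed through a comparison of rgd2-R mutant and non-mutant meristems on 2 spotted array designs, SAM1 and SAM3. The 3 genes were chosen with earlier results of these data known. Their probes were taken by gene identity: every probe that the platform annotation gives to 1 of these genes, by symbol, synonym or gene identifier. This gave 4 of the 19200 probes of SAM1 (1 for rs2, 1 for ns2 and 2 for wox13B) and 3 of the 16000 probes of SAM3 (1 for each gene). The 3 genes stand among 766 genes that the annotation names on the designs together. The 3 probes of SAM3 carry the same GenBank clone accessions as the SAM1 probes of rs2, ns2 and 1 of the wox13B pair, so each gene was read from the same clone on both designs. The current RefSeq gene table holds the identifiers of rs2 and ns2. It does not hold that of wox13B and uses the name for another identifier, so wox13B here means the gene as the platform annotation names it.

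The meristem is the dome of undifferentiated cells at the shoot tip, and leaves arise from groups of founder cells on its flank. Class I KNOX homeobox genes, with knotted1 (kn1) the best known in maize, are on in the meristem and are switched off in founder cells. rs2 encodes a MYB protein, the maize relative of Asymmetric leaves1 of Arabidopsis, that keeps KNOX genes silent in leaf primordia. ns2 encodes a WOX (WUSCHEL-related homeobox) protein and acts redundantly with its duplicate ns1 to recruit the founder cells of the leaf margins. wox13B is named as a member of the WOX family too, and no role in the maize leaf is given for it here. rgd2 (ragged seedling2) encodes an ARGONAUTE protein of the trans-acting small RNA pathway, which helps to set the upper side of the leaf. No probe was assigned to rgd2 itself, so its transcript was not analysed here.

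Both groups were laser-microdissected meristems of seedlings harvested 14 days after germination, grown together under controlled conditions. One group carried rgd2-R, introgressed for 5 generations into the inbred line Mo17, and the other was non-mutant. Their RNA was amplified in 2 rounds and labelled with Cy3 or Cy5, and each hybridisation held both genotypes. On either design 6 biological replicates were hybridised. Replicates 1 to 3 held rgd2-R RNA labelled with Cy3, and replicates 4 to 6 held it labelled with Cy5. A low, a mid and a high reading were deposited of every replicate, 36 readings of 12 hybridised replicates in all. Ratios are on the log2 scale, mutant over non-mutant, and are the mean of the 3 readings after background correction and loess normalization. The SE is that of a limma fit with a dye term, and adjusted p-values cover every gene and every unnamed spot of a design. With all 6 replicates the fitted ratio is their mean. With replicates left out the fit weighs the 2 dye orientations equally, so a gene's fitted ratio can differ from the plain mean.

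Across the readings the median spot signal ran from 301 to 1947.5 scanner units in Cy3 and from 101 to 554 in Cy5 on SAM1, and from 143 to 1847 and from 46.5 to 1002 on SAM3. The number of arrays limits the precision. The meristem gene kn1 gave signal in both designs, with a median signal over local background of 5.86 in Cy3 and 9.38 in Cy5 on SAM1, and 10.4 and 13.3 on SAM3. Of the other listed meristem markers, knox3 and knox8 had probes on SAM3, at 2.33 and 1.33 in Cy3. The photosystem gene psan1 stayed near background, at 1.14 and 1.19 on SAM1 and 1.27 and 1.56 on SAM3, and the Rubisco small subunit gene ssu1 reached 1.26 and 1.35 on SAM1 and 2.22 and 2.42 on SAM3. Some other markers of neighbouring cell types gave signal, and some stayed near background. The malic enzyme gene me3 reached 2.03 and 2.99 on SAM1 and 2.99 and 3.54 on SAM3, and the epidermal homeobox gene ocl1 3.85 and 10.2 on SAM1 and 12.9 and 16.1 on SAM3. The sucrose synthase gene sus1 of the vascular list reached 14.4 and 23.8 on SAM1 and 15.9 and 25.9 on SAM3. The same lists held dim genes on SAM1: bm1 (vascular) at 1.12 and 1.15 and mdh6 (leaf) at 1.48 and 1.86. Of the epidermal list, ocl2 stood at 1.54 and 1.46 and gl8 at 1.58 and 2.23. Brighter on SAM1 were the vascular sh1 (6.41 and 11.9) and the epidermal brk1 (3.98 and 7.34) and ocl4 (2.53 and 5.88).

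On SAM3 the low and mid readings of replicate 3 went against their dye labels. The Cy3 background exceeded the Cy5 background in 34 of the 36 readings, and these readings were the only exceptions. As labelled, the median Cy5 signal of replicate 3 ran 375, 505.5 and 406 from low to high, although both dyes brightened from low to mid to high in every other replicate. Over the brighter 50% of probes the low and the mid reading correlated with the high reading at -0.94 and -0.95, while the other 34 pairs of readings of 1 replicate correlated between 0.38 and 0.93. SAM3 replicate 2 in turn ran opposite to replicate 1 (r = -0.28), and to replicate 3 once its low and mid readings were turned (r = -0.41). Replicate 2 correlated with replicates 4 to 6 at -0.24, 0.041 and -0.18. Its backgrounds followed its labels, at 77, 120 and 211 in Cy3 and 21, 32 and 57 in Cy5. Its 3 readings correlated at 0.68 to 0.73. Negative correlations between replicates also occurred on SAM1, at -0.22 for replicates 2 and 5. Turning SAM3 replicate 2 uses its disagreement itself, so counts and p-values with it turned are a description and no test. The direction of SAM3 replicates 2 and 3 is not settled. SAM3 ratios are therefore given as labelled and with the low and mid readings of replicate 3 turned (their sign reversed), and in most cases with replicate 2 turned as well. Signals over background are as labelled throughout.

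**Figure D1:**
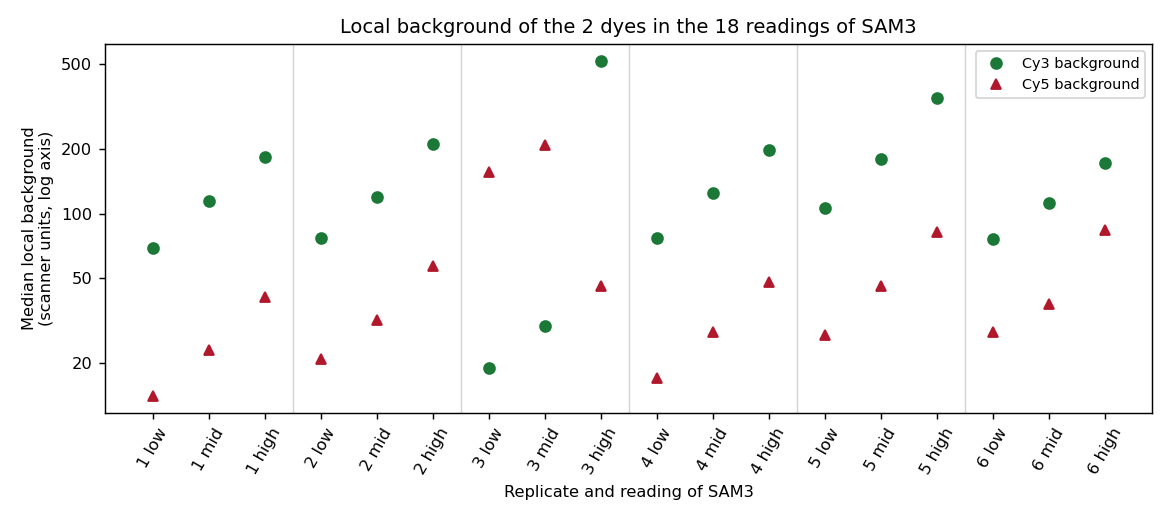
The median local background of each dye (scanner units, log axis) is plotted for the 18 readings of SAM3, ordered by replicate and reading, with circles for Cy3 and triangles for Cy5. Cy3 lies above Cy5 in 16 readings, and the order is turned in the low and mid readings of replicate 3, at 19 and 30 in Cy3 against 157 and 210 in Cy5.

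None of the 3 genes passed an adjusted p of 0.05 on either design, and neither did any other probe: 0 of 19200 probes on SAM1 and 0 of 16000 on SAM3, a share called of 0.00% on each. At an unadjusted p under 0.05 limma gave 14.8% of SAM1 probes and 6.58% of SAM3 probes. Under that looser measure rs2 was higher in rgd2-R on SAM1 and ns2 was higher on SAM3, 1 of 3 genes on each design. Among all genes and unnamed spots the share higher by this measure was 6.57% on SAM1 and 2.94% on SAM3. With the low and mid readings of SAM3 replicate 3 turned, rs2 and ns2 were both higher at an unadjusted p under 0.05 against a share of 2.62%, and with replicate 2 turned as well against 8.19%. Under these changes 0.00% and 0.0125% of SAM3 probes passed the adjusted threshold, no member among them. With the probes as the unit, 51.2% of SAM1 and 48.6% of SAM3 probes had a mean above 0. The median over all probes was 0.0027 on SAM1 and -0.0027 on SAM3. Loess normalization within arrays centres the ratios near 0, so these values do not test the centring of the members. In these bulk samples, more cells that express a gene and more RNA per cell cannot be told apart.

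**Figure D2:**
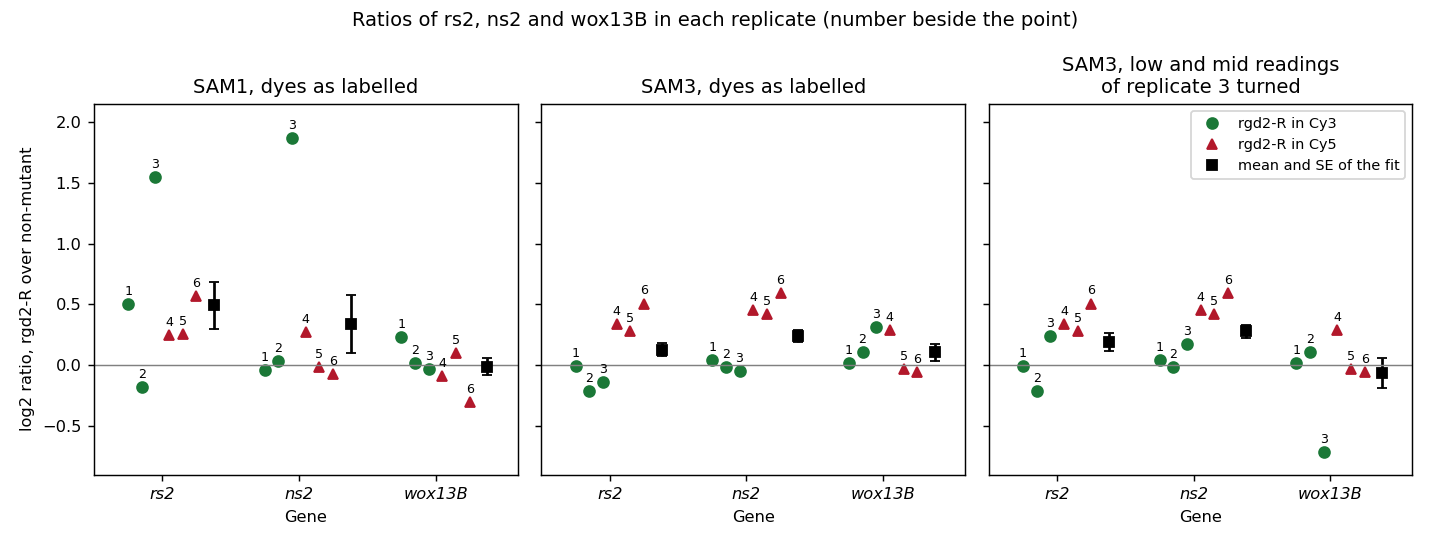
The log2 ratio of rgd2-R over non-mutant is plotted for rs2, ns2 and wox13B in each of 6 replicates on SAM1 and SAM3, with circles where rgd2-R was in Cy3, triangles where it was in Cy5, and squares with bars for the mean and SE of the fit. On SAM1 replicate 3 sits far above the rest for rs2 (1.55) and ns2 (1.87), and on SAM3 the triangles of rs2 and ns2 all lie above the circles.

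rs2, the MYB repressor of KNOX genes, gave the largest mean of the 3 genes on SAM1. Its ratio was 0.50, -0.18 and 1.55 in replicates 1 to 3 and 0.25, 0.26 and 0.57 in replicates 4 to 6. The gene was thus higher in rgd2-R in 5 of 6 replicates, with replicate 2 the exception and replicate 3 well above the others. The mean was 0.49 (SE 0.20, n = 6), a 1.41-fold higher signal in rgd2-R, with a 95% interval from 0.033 to 0.95 and a limma adjusted p of 0.319 (unadjusted 0.0387). Without replicate 3 the fit gave 0.26, or 1.20-fold (plain mean 0.28), still higher in 4 of 5 replicates. Without replicate 2 it gave 0.69 (plain mean 0.63), and rs2 was higher in all 5 that were left. Leaving out replicate 1, 4, 5 or 6 gave fitted ratios of 0.44 to 0.52 with unadjusted limma p-values of 0.0675 to 0.115. The unadjusted p under 0.05 was thus lost each time. It was also lost with plain background subtraction (0.0746) and with the high reading alone (0.0633). Within the dye orientations the mean was 0.63 with rgd2-R in Cy3 and 0.36 with rgd2-R in Cy5, so both orientations lay above 0.

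The rs2 probe was well measured on SAM1. Its signal exceeded 2 times the local background in all 18 readings of either dye, with medians of 6.53 in Cy3 and 10.3 in Cy5. The normalized log2 signal of the probe was 10.25 ± 0.65 in rgd2-R and 9.76 ± 0.55 in non-mutant meristems (SD, n = 6). Levels of the genotypes overlapped, from 9.58 to 11.1 against 9.18 to 10.7. The 3 readings of a replicate lay close together, with ranges from 0.080 in replicate 1 to 0.49 in replicate 4, the only one in which a reading differed in sign from the replicate's mean.

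On SAM3 the ratio of rs2 split by dye orientation. It was -0.0043, -0.21 and -0.14 in replicates 1 to 3, where rgd2-R was in Cy3, and 0.34, 0.28 and 0.51 in replicates 4 to 6, where it was in Cy5. The orientations did not overlap, with means of -0.12 and 0.38. Among all SAM3 probes 4.98% showed this separation with Cy5 above. The mean over both orientations was 0.13 (SE 0.056, n = 6), with a limma adjusted p of 0.783 (unadjusted 0.0569). That SE comes after the dye term has taken up the split, and without a dye term it was 0.10. With the low and mid readings of replicate 3 turned, replicate 3 became 0.24 and the mean 0.19 (SE 0.076, adjusted p 0.678). With replicate 2 turned as well the mean was 0.26 (SE 0.063, adjusted p 0.200). The mean was positive under each of these readings of the dyes. As labelled, rs2 averaged below 0 in replicate 2 and in the low and mid readings of replicate 3. Turning these could therefore only raise the mean. Turning the high reading of replicate 3 instead gave 0.11 (SE 0.063). With the low and mid readings of replicate 3 turned, the orientations stayed apart with Cy5 above in 5.88% of all probes. With replicate 2 turned as well this was 8.61%, rs2 among them both times.

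The rs2 levels on SAM3 were 9.40 ± 0.57 in rgd2-R and 9.27 ± 0.48 in non-mutant meristems on the normalized log2 scale (SD, n = 6), or 9.43 ± 0.60 and 9.24 ± 0.43 with the readings of replicate 3 turned. The signal exceeded 2 times the background in all 18 readings of both dyes. The mean of rs2 was 0.49 on SAM1 and 0.13 on SAM3, and this difference between designs was not tested, since the labels do not say whether the designs received the same RNA. Over 178 probe pairs that share an accession between the designs, the mean ratios correlated across probes at 0.46 as labelled and at 0.61 with the readings of replicate 3 turned. The sign was shared in 47.8% and 53.9% of these pairs.

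ns2, the WOX gene of leaf margin founder cells, gave a mean on SAM1 that rested on 1 replicate. Its ratio was -0.043, 0.037 and 1.87 in replicates 1 to 3 and 0.28, -0.014 and -0.072 in replicates 4 to 6. Replicate 3 was far above the rest, replicate 4 was also higher in rgd2-R, and the other 4 lay within 0.072 of 0. The gene was higher in rgd2-R in 3 of 6 replicates, and the median was 0.012. The mean was 0.34 (SE 0.24, limma adjusted p 0.587, unadjusted 0.193). Without replicate 3 the fit gave 0.030 (SE 0.073, n = 5, adjusted p 0.918) and the plain mean was 0.037. The 95% interval without that replicate ran from -0.14 to 0.20.

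The high ns2 value of SAM1 replicate 3 was present in all 3 of its readings, which lay between 1.80 and 1.92. In that replicate the log2 level was 11.8 in rgd2-R and 9.92 in non-mutant meristems. The Cy3 spot, which held rgd2-R there, was uneven: in the low reading its mean pixel signal was 1273 and its median pixel signal 495, a ratio of 2.57. In its mid and high readings this ratio was 2.52 and 2.40. The spot was less uneven in replicate 1, at 2.03, 1.60 and 1.74 from low to high. In replicate 5, where Cy3 held non-mutant RNA, it stood at 1.66, 2.19 and 1.66. The most even reading of the spot, at 1.09, was the high reading of replicate 2. With median pixel signals in place of means the log2 ratio of replicate 3 was 1.40 and the mean over replicates 0.33 (SE 0.20). rs2 was high in the same replicate and its ratio there was 1.68 with median pixels. In replicate 3 of SAM1, 163 of 19200 probes (0.849%) had a ratio above 1, against 16 to 54 probes in the other replicates. Below -1 lay 139 probes in replicate 3, against 6 to 120 in the other replicates, so its ratios spread widely on both sides. What part the unevenness of the spot had in the ns2 value was not tested.

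**Figure D3:**
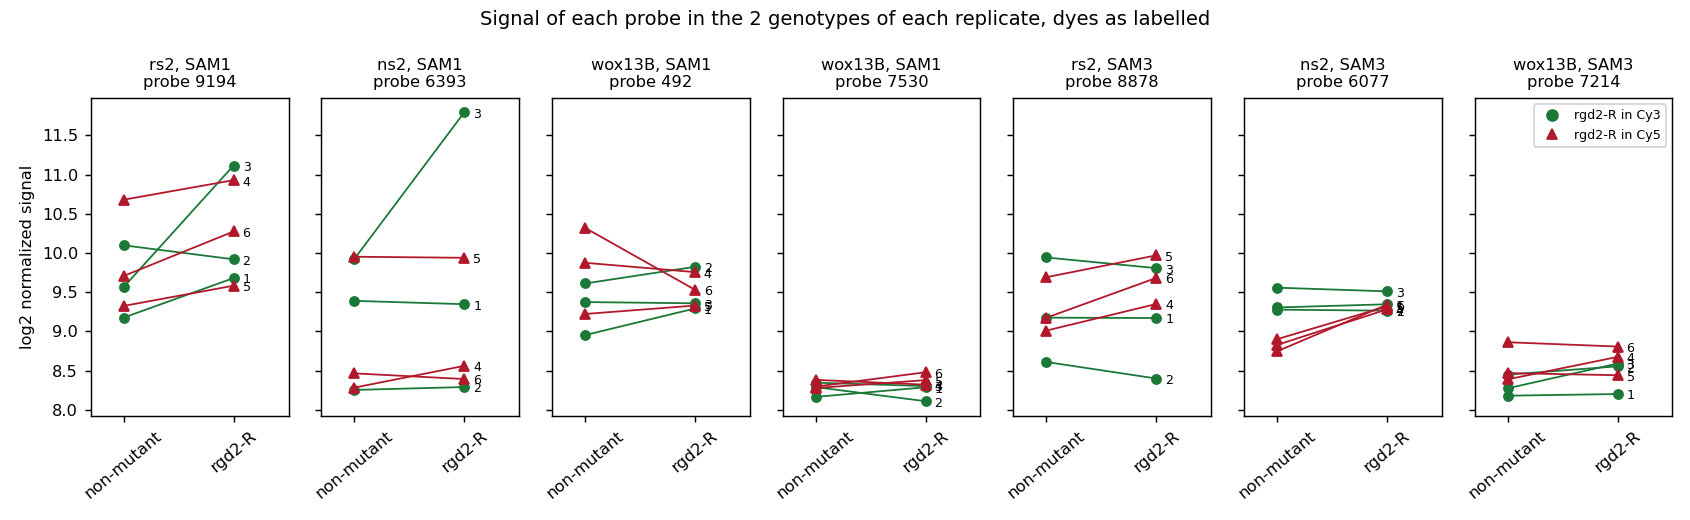
The normalized log2 signal of each of the 7 probes is plotted in non-mutant and rgd2-R meristems, with a line for each replicate, circles where rgd2-R was in Cy3 and triangles where it was in Cy5. The steepest line is ns2 on SAM1 in replicate 3, from 9.92 to 11.8, and on SAM3 the lines of ns2 rise from below 9 only where rgd2-R was in Cy5.

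On SAM3 ns2 had the smallest unadjusted p of the members. Its ratio was 0.041, -0.013 and -0.047 with rgd2-R in Cy3 (replicates 1 to 3) and 0.45, 0.42 and 0.59 with rgd2-R in Cy5 (replicates 4 to 6). The former lay around 0 and the latter were all above 0.4, with means of -0.0065 and 0.49 and no overlap. As for rs2, the background for such a separation was 4.98% of SAM3 probes. The mean was 0.24 (SE 0.050, n = 6), or 1.18-fold higher in rgd2-R, with a limma adjusted p of 0.544 (unadjusted 0.00203). Without a dye term the SE was 0.10 and the unadjusted p 0.0446. Turning the low and mid readings of replicate 3 moved that replicate to 0.17 and the mean to 0.28 (SE 0.056, adjusted p 0.540). With replicate 2 turned as well the mean stayed at 0.28 (adjusted p 0.193), and ns2 was then higher in 6 of 6 replicates, as 4.17% of all probes were. What was turned averaged below 0 as labelled, so the turning could only raise the mean and the count. Turning the high reading of replicate 3 instead gave 0.22 (SE 0.058). In the fit with the dye term, leaving out replicates 2 and 3 altogether gave 0.26 (SE 0.080, n = 4). Replicate 1 (0.041) was then the only one with rgd2-R in Cy3 and weighed as much as replicates 4 to 6 together.

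The ns2 levels on SAM3 are given as labelled. In rgd2-R the probe's log2 signal was nearly constant, from 9.26 to 9.51 over 6 replicates (9.34 ± 0.088, SD). In non-mutant meristems it ran from 8.75 to 9.56 (9.10 ± 0.32, SD), with 9.30, 9.28 and 9.56 in replicates 1 to 3 and 8.83, 8.90 and 8.75 in replicates 4 to 6. The non-mutant RNA was in Cy5 in the former and in Cy3 in the latter, so the dye and the hybridisation cannot be told apart as the source of that step.

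wox13B gave means near 0 on SAM1 with both of its probes, while the brighter probe varied widely between replicates. The brighter probe read 0.34, 0.21 and -0.016 in replicates 1 to 3 and -0.12, 0.11 and -0.79 in replicates 4 to 6, with a mean of -0.044 (SE 0.12) and an SD of 0.40. Replicate 6 was the lowest, at -0.66 to -0.99 over its readings. The second probe read 0.12, -0.18, -0.044, -0.062, 0.10 and 0.18 in replicates 1 to 6, with a mean of 0.020 (SE 0.062). It was dim, with a median signal over background of 1.76 in Cy3 and 2.79 in Cy5, while the first probe stood at 4.93 and 6.52. The probes disagreed in sign in 2 of the 6 replicates, 2 and 6. Averaged over probes the gene gave -0.012 (SE 0.069, limma adjusted p 0.963, unadjusted 0.867), with a 95% interval from -0.17 to 0.15.

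On SAM3 the sign of wox13B depended on how replicate 3 was read. The ratio was 0.021, 0.11 and 0.32 in replicates 1 to 3 and 0.29, -0.027 and -0.055 in replicates 4 to 6, with a mean of 0.11 (SE 0.070, limma adjusted p 0.890, unadjusted 0.167). The dye orientations overlapped, with means of 0.15 and 0.068. In replicate 3 the low and mid readings were 0.74 and 0.81 and the high reading was -0.60. With the low and mid readings turned, replicate 3 fell to -0.72 and the mean to -0.064 (SE 0.12), and with replicate 2 turned as well the mean was -0.099 (SE 0.11). Without replicate 3 the fit gave 0.066 and without replicate 4 it gave 0.053 (plain means 0.066 and 0.072), so no direction was settled for wox13B.

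The 3 genes were set against each other within each replicate, over 6 pairs, with an exact sign-flip permutation test (two-sided) for which the smallest p is 0.0313. On SAM3 ns2 lay above rs2 in 6 of 6 replicates, by 0.11 ± 0.052 on the log2 scale (SD, exact p 0.0313, adjusted over the 6 pairs 0.188). With the low and mid readings of replicate 3 turned ns2 was above rs2 in 5 of 6, by 0.085 (exact p 0.0938), and with replicate 2 turned as well in 4 of 6, by 0.020. On SAM1 wox13B lay below rs2 in 5 of 6 replicates, by 0.50 ± 0.63 (SD, exact p 0.0938, adjusted 0.281). The other 4 pairs had exact p-values of 0.406 to 0.875. With 6 pairs a single pair cannot reach an adjusted p below 0.188, so the adjustment could not have called it. wox13B against rs2 on SAM3 stood at -0.021 as labelled, at -0.26 (exact p 0.250) with the readings of replicate 3 turned and at -0.36 (below in 5 of 6, exact p 0.0625) with replicate 2 turned as well. wox13B against ns2 stood at -0.13, -0.34 (exact p 0.0938) and -0.38 (below in 6 of 6, exact p 0.0313), all unadjusted.

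Of the KNOX family, which includes targets of the rs2 protein, 3 genes were measured on SAM1 and 5 on SAM3. The list was matched by gene name and not limited to class I, so not every gene on it need be a target. None passed an adjusted p of 0.05. On SAM1 2 of 3 lay above 0, with a median of 0.051. kn1 was at -0.12 (SE 0.081), higher in 1 of 6 replicates. lg3 was at 0.17 (SE 0.057, unadjusted p 0.0188, adjusted 0.244) and higher in 6 of 6, as 3.11% of all SAM1 probes were, and knox7 was at 0.051 (SE 0.074). On SAM3 3 of 5 lay above 0 with a median of 0.0015, and the range ran from -0.065 for kn1 to 0.019 for knox3. With the low and mid readings of replicate 3 turned 2 of 5 lay above 0, with kn1 at -0.15 (SE 0.095) and lg3 at -0.23 (SE 0.12). With replicate 2 turned as well kn1 was at -0.24 (SE 0.060, adjusted p 0.201). kn1 thus had a negative mean on both designs and under each reading of the dyes.

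ns1, the duplicate of ns2, was measured on SAM3 alone and was the 1 other gene of the WOX list with probes. Its mean was -0.011 (SE 0.073) as labelled, with 4 of 6 replicates above 0. It was 0.23 (SE 0.15) with the readings of replicate 3 turned and 0.26 (SE 0.13, adjusted p 0.375) with replicate 2 turned as well. ns2 was at 0.24, 0.28 and 0.28 under the same readings, so the distance between the duplicates depended on the unsettled replicates. ig1, a LOB domain gene that limits KNOX expression in leaves, was at 0.017 (SE 0.060) on SAM1 and at -0.050 (SE 0.086) on SAM3, or -0.11 and -0.19 when turned.

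Among the leaf polarity genes, 6 were measured on each design and none passed. On SAM1 5 of 6 lay above 0, with a median of 0.14. Without replicate 3 this became 3 of 6 and a median of -0.030. The YABBY genes yab9 and yab10 were at 0.40 (SE 0.25) and 0.32 (SE 0.20), falling to 0.092 and 0.083 without that replicate, as ns2 did. lbl1, which like rgd2 serves trans-acting small RNA production, was at -0.18 (SE 0.076, unadjusted p 0.0450, adjusted 0.339), and the HD-ZIP gene rld2 at 0.15 (SE 0.13). On SAM3 5 of 6 lay above 0, with a median of 0.066, with yab14 at 0.33 (SE 0.17, adjusted p 0.830). The others named by their p were yab9 at 0.11 (SE 0.099), yab10 at 0.12 (SE 0.12) and the HD-ZIP gene rld1 at -0.043 (SE 0.047). With the readings of replicate 3 turned the count stayed at 5 of 6 (median 0.069), and with replicate 2 turned as well it was 4 of 6 (median 0.072). Under these changes yab14 went to 0.32 and 0.067, rld2 from 0.023 to 0.28 and 0.35, and lbl1 from 0.0031 to -0.18 and -0.34 (SE 0.083, unadjusted p 0.00529, adjusted 0.200). yab9 went to 0.018 and 0.077, yab10 to 0.12 and 0.14, and rld1 to 0.010 and -0.0025. te1 (terminal ear1), which restrains leaf initiation, was at 0.15 (SE 0.081) on SAM1. On SAM3 it was at 0.13 (SE 0.13) as labelled and at 0.079 and 0.17 when turned, and the inflorescence gene ba1 was at -0.036 (SE 0.066) on SAM1. The list of BELL partners of KNOX proteins matched no named gene.

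**Figure D4:**
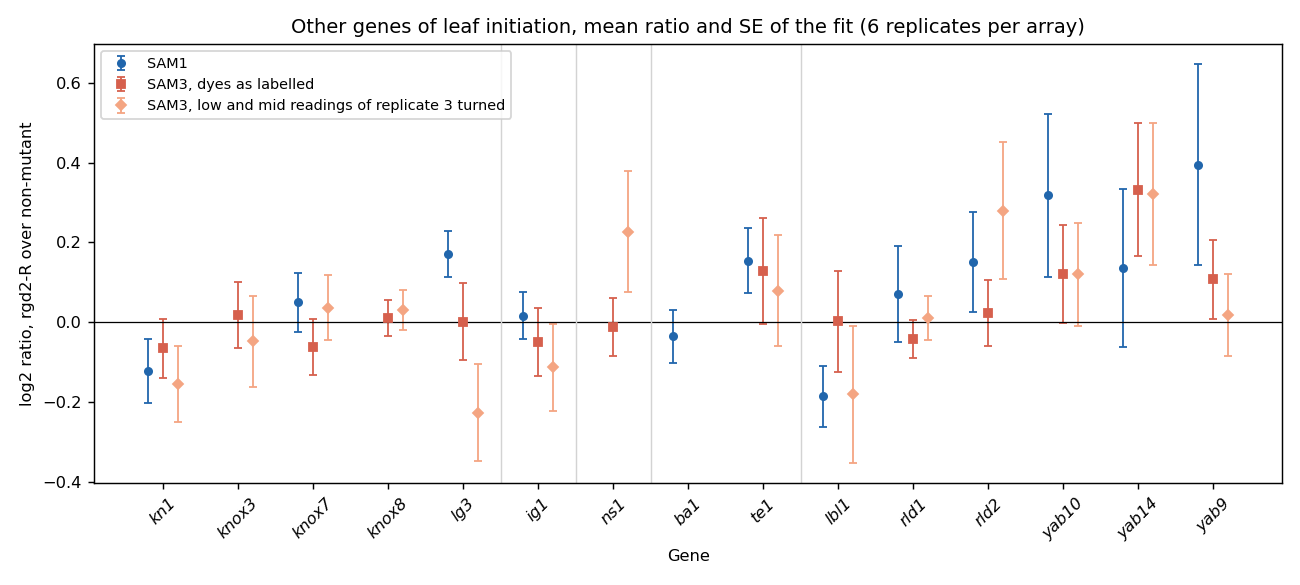
The mean log2 ratio of rgd2-R over non-mutant and its SE are plotted for the other named genes of leaf initiation, grouped by list (KNOX, LOB domain, WOX, leaf initiation, leaf polarity), for SAM1, for SAM3 as labelled and for SAM3 with the low and mid readings of replicate 3 turned. lg3, ns1 and rld2 move between the SAM3 readings, from 0.0015 to -0.23, from -0.011 to 0.23 and from 0.023 to 0.28.

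Markers of other tissues were read beside the members. The epidermis list had 4 of 5 genes above 0 on SAM1 (median 0.032, from -0.026 to 0.21) and 5 of 6 on SAM3 as labelled (median 0.059, from -0.28 to 0.25). On SAM3 this became 2 of 6 (median -0.052) with the readings of replicate 3 turned and 1 of 6 (median -0.12) with replicate 2 turned as well. The leaf and photosynthesis list had 3 of 4 above 0 on SAM1 (median 0.045) and 2 of 3 on SAM3 (median 0.0052), the latter becoming 1 of 3 (-0.041) and 0 of 3 (-0.043) under the same changes. For the vascular and lignin list it was 1 of 3 on SAM1 (median -0.090) and 1 of 3 on SAM3 under each reading of the dyes, with medians of -0.0040 as labelled and -0.13 and -0.11 when turned. No gene of these lists passed an adjusted p of 0.05, and their part in the ratios of rs2 and ns2 was not tested.

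Of the named genes of each design, those whose ratio ran most like a member over the 6 replicates were found by Pearson's r, as a description. On SAM1, out of 580 genes, rs2 was followed most closely by rop4 (r = 0.99), the centromeric histone gene cenH3 (0.98) and nfd101 (0.96), whose ratios in replicate 3 were 0.23, 0.84 and 0.79 and were the highest of their 6. ns2 was followed by 3 genes that carry only locus names (r = 0.97 to 0.98), each also highest in replicate 3. For wox13B they were cc4 (0.97), CK2 (0.93) and KIN13 (0.93). On SAM3, out of 595 genes, the ascorbate peroxidase gene apx was first for both ns2 (r = 0.99) and rs2 (r = 0.98), over a far narrower range, from -0.068 to 0.17. It was first for both with the readings of replicate 3 turned (0.98 and 0.97). With replicate 2 turned as well it was first for ns2 (0.96) and came after the response regulator gene RR8 (0.97) for rs2 (0.94). For wox13B the first gene was the alcohol dehydrogenase gene adh1, at 0.95 as labelled and 0.99 with the readings turned, and fie2 (0.99) with replicate 2 turned as well. adh1 was highest in replicate 3 as labelled (0.75) and lowest there when turned (-1.57). Genes matched in this way share the same 6 hybridisations and dyes.

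Over 17 other processings of the SAM1 data rs2 stayed between 0.26 and 0.69 and never passed an adjusted p of 0.05. ns2 kept a positive fitted ratio over the same processings, from 0.030 to 0.51. Over 21 other processings of SAM3 rs2 lay between 0.066 and 0.26 and ns2 between 0.15 and 0.37, both above 0 each time. The smallest adjusted p of either gene was 0.146 on SAM1 and 0.193 on SAM3.

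**Figure D5:**
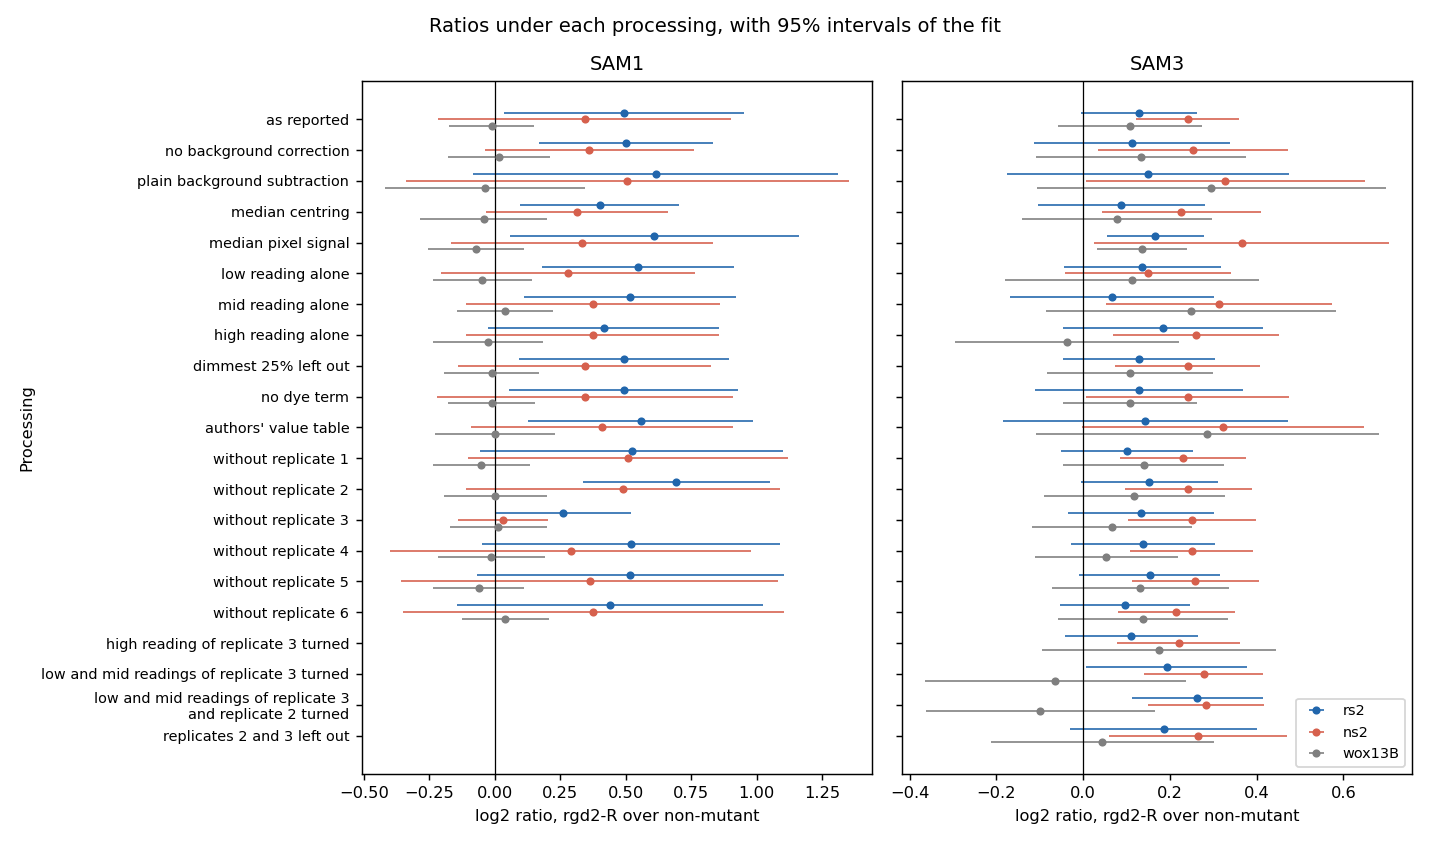
The fitted log2 ratio of rgd2-R over non-mutant with its 95% interval is plotted for rs2, ns2 and wox13B under each processing of SAM1 and SAM3. The horizontal scales differ between the panels. The fitted ratios of rs2 and ns2 lie above 0 throughout, ns2 on SAM1 drops to 0.030 without replicate 3, and wox13B lies on both sides of 0. The interval of ns2 on SAM1 includes 0 under every processing, and that of rs2 includes 0 under several on each design.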

How the data were processed

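Whole-number intensity values of each spot and its local background in Cy3 and Cy5 were deposited for 36 readings, uncorrected per the file headers. Beside them the deposited files give the authors' own natural log ratio (base read from the values); how it was background corrected and normalized is not given in the sources here. The authors' value table equals that natural log ratio in replicates 1 to 3 and its negative in replicates 4 to 6, so that it runs non-mutant over rgd2-R throughout. It was turned, put on the log2 scale and used as an alternative.

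In limma 3.58.1 (R 4.3.3) the background of the mean signals was corrected by normexp with an offset of 50, followed by loess normalization within arrays. Low, mid and high readings were averaged to 1 value per replicate. SAM1 and SAM3 were fitted apart with lmFit and eBayes, with genotype and dye terms and Benjamini-Hochberg adjustment over all probes, or over 17983 (SAM1) and 15439 (SAM3) genes and unnamed spots, with probes of a named gene averaged. On SAM1 1800 probes had 1 gene name and 23 had several, and on SAM3 1159 and 1. Unnamed probes were tested but not named. Levels are loess-normalized signals per dye after Aquantile scaling between arrays.

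The members and lists were chosen with earlier results of these data known. Named are all member probes, up to 4 genes of each list by smallest unadjusted p plus any that pass, and the 3 genes most like each member. The 7 member probes all passed a filter that leaves out the dimmest 25% of probes. The fits were tested on simulated data. No sequences of the probes or genes were used here.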

Additional observations from a re-analysis of the deposited data

Results flagged for a closer look

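In 21 sets of 6 values (the ratio of each of the 7 member probes and its level in each genotype), 2 sets had a replicate far from the others by Dixon's criterion, which chance meets in about 1 set in 20. The log2 ratio of ns2 on SAM1 was 1.87 in replicate 3, while the other 5 replicates lay between -0.072 and 0.28. On SAM1 0.969% of all probes had replicate 3 standing apart as the highest value in the same way. The log2 level of ns2 in rgd2-R on SAM3 was 9.51 in replicate 3, the highest of 6 values that started at 9.26, and replicate 3 is the one whose low and mid readings went against their labels. With these readings turned that level was 9.62.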

How the results depend on the processing

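No paired analysis was possible because replicate numbers are shared only between SAM1 and SAM3, which were not compared; each ratio already sets the genotypes of 1 hybridisation against each other. Of 233 alternative values, 207 were classed as the same and 19 changed sign, none of the latter of rs2 or ns2 against non-mutant. For ratios and differences, the same means an equal direction and side of the threshold, and for counts of probes an equal count. Part of this was fixed in advance. For rs2 and ns2 the median over probes, the fit without a dye term and the dim filter could not alter the ratio. On SAM3 both genes averaged below 0 in replicate 2 and in the low and mid readings of replicate 3. Turning these could therefore only raise their means. Differences between genes over 5 replicates have a smallest exact p of 0.0625 and could not pass. The count of SAM1 probes at an adjusted p under 0.05, 0 as reported, was 195 with no background correction, 42 without the dimmest 25% of probes, 36 with the mid reading alone, 11 with median centring, 1 with the authors' value table, and 0 to 2 without 1 replicate. On SAM3 it was 2 with the low and mid readings of replicate 3 and replicate 2 turned. wox13B on SAM1 (-0.012) became 0.015 with no background correction, 0.039 with the mid reading alone, 0.00039 in the authors' value table and -0.062 to 0.040 without 1 replicate. Its brighter probe (-0.044) became 0.071 with the mid reading alone and -0.14 to 0.086 without 1 replicate. Its dimmer probe (0.020) became -0.011 with plain background subtraction, -0.035 with the high reading alone and -0.019 to 0.057 without 1 replicate. wox13B on SAM3 (0.11) became -0.037 with the high reading alone, -0.064 with the low and mid readings of replicate 3 turned and -0.099 with replicate 2 turned too. wox13B minus rs2 on SAM3 (-0.021) ran from -0.12 to 0.087 without 1 replicate, was 0.063 with the high reading of replicate 3 turned, -0.26 with its low and mid readings turned instead and -0.36 with replicate 2 turned too. The cause of these changes was not tested. Replicates 2 and 3 of SAM3 were left out together, and the turned differences between genes were run, as alternatives chosen after seeing the data. Signals of the dimmer wox13B probe, at 1.76 times its Cy3 background, limit what can be seen of that gene.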
